A study of Mus musculus with 8 samples.

Results

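Libraries of naive mouse embryonic stem cells labelled as Ino80 knockout were compared with those labelled as wild type across all genes with at least 1 RPKM (reads scaled by transcript length and library size) in at least 2 of the 4 naive libraries. This left 12109 of the 24505 genes listed. Each group held 2 libraries, 2iL knockout replicates 1 and 2 and 2iL wild-type replicates 1 and 2, out of 8 libraries in the series, the other 4 being from primed cells. All cells belong to a line named INO80 CKO, which carries a conditional Ino80 allele. Naive cells were grown in N2B27 medium with the MEK inhibitor PD0325901, the GSK3 inhibitor CHIR99021 and LIF. By the labels, deletion followed 100 nM 4-OHT for 2 days and 2 further days of culture. The sources used here do not say whether the wild-type libraries also saw 4-OHT, or what drives the Cre recombinase. Total RNA depleted of ribosomal RNA was sequenced, with ERCC spike-in RNA added to the lysates. The labels do not say whether replicates came from separate cultures or whether the line is 1 clone. The p-values then reflect the spread of these 4 libraries alone, and part of it may be technical.

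INO80 is an ATP-dependent chromatin remodeller that slides and spaces nucleosomes, is known to act on nucleosomes that carry the histone variant H2A.Z, and takes part in transcription, replication and repair. YY1, a zinc finger protein that binds DNA near the start of many genes, is a known partner of the mammalian complex. Mouse embryonic stem cells in the naive state resemble the epiblast before implantation and hold developmental genes at low levels.

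The 2 scales used throughout were log2(RPKM + 1) as deposited and the same values after quantile normalization within the 4 naive libraries. A difference is knockout minus wild type on the log2 scale, so that folds of weak genes are understated, and a gene was called at a Benjamini-Hochberg adjusted p under 0.05 in limma. As deposited, 1437 genes were called higher (11.9% of those tested) and 1097 lower (9.06%), 20.9% in all. After quantile normalization 4029 were called higher (33.3%) and 3364 lower (27.8%), 61.1% in all. No gene was called in opposite directions on the 2 scales, and 1431 (11.8%) were called higher and 1091 (9.01%) lower on both. "Rose" and "fell" are used below only for genes called on both scales. The median difference over all tested genes was 0.06 as deposited and 0.03 after quantile normalization. The wild-type replicates differed from each other with expression level: as deposited, replicate 1 exceeded replicate 2 by a median of 0.56 where the mean log2(RPKM + 1) was at most 2, and lay 0.17 below it where that mean was above 7. The counts as deposited moved with the library left out. Without knockout replicate 1 or 2, 714 and 678 genes were called, and without wild-type replicate 1 or 2, 7638 and 6119. After quantile normalization the 4 counts ran from 6150 to 6290. For each of the 43 gene lists described in full below, the lowest and the highest count as deposited with 1 library left out are given, with that library in brackets. Without an intensity trend in the variance model, 1 gene was called as deposited and 7083 after quantile normalization. Most differences were small. Only 97 genes (0.801%) were called higher on both scales with at least a 2-fold change as deposited, and 113 (0.933%) lower.

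**Figure D1:**
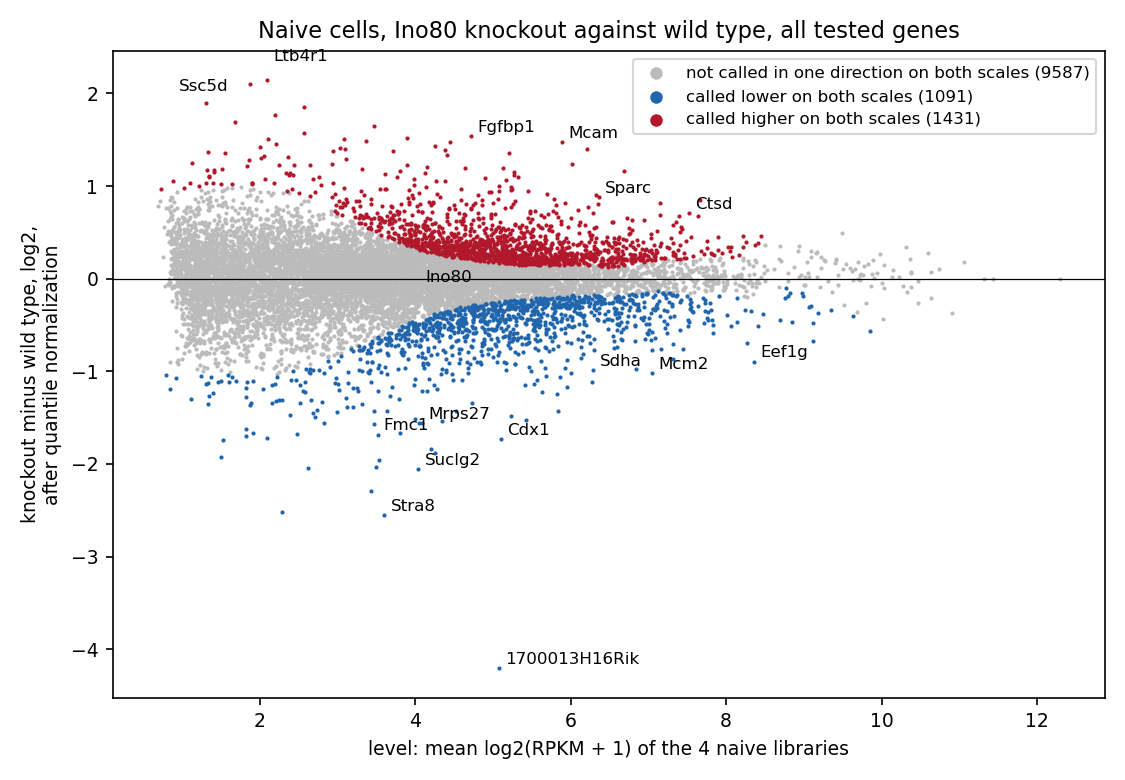
Difference between knockout and wild type (log2, after quantile normalization) against mean level for the 12109 tested genes; red and blue points are the 1431 and 1091 genes called higher and lower on both scales, grey points all others. Most called genes lie within 1 log2 unit of 0, and 1700013H16Rik stands far below all other points.

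The gene-level value of Ino80 itself did not fall. Ino80 stood at 15.9 and 15.1 RPKM in the knockout libraries and 17 and 14.5 RPKM in the wild-type libraries, and the groups overlapped. Its difference was -0.02 (SE 0.147, adjusted p = 0.961) as deposited and -0.08 (SE 0.0405, adjusted p = 0.126) after quantile normalization. The gene total sums all exons, and the sources used here do not say which exons the allele removes, so the value neither checks nor contradicts the labels. Markers of embryonic stem cells were high in all 4 libraries. Pou5f1 (Oct4) stood at 694 and 693 against 635 and 671 RPKM, and Nanog at 543 and 570 against 506 and 566 RPKM. Of 22 endoderm, 22 neural, 24 mesoderm, 20 trophoblast and 20 blood markers, 10, 13, 12, 12 and 14 were under 1 RPKM in every naive library. Fewer cells of a kind and less RNA per cell cannot be told apart in these bulk values.

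The deepest change of all was in 1700013H16Rik, which lies outside the rule for named genes and was chosen after its values were seen: it had 7.17 and 6.69 RPKM in the knockout libraries and 139 and 149 RPKM in the wild-type libraries. The difference was -4.19 as deposited and -4.21 (adjusted p = 2.34e-07) after quantile normalization.

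Among the 15 named genes that fell most were several normally confined to germ cells or to other tissues. Rnf17, a Tudor domain protein of germ cell granules, had 5.06 and 4.97 RPKM in the knockout libraries and 23.2 and 19.9 RPKM in the wild-type libraries. Cdx1, a homeobox gene of the posterior embryo and a known WNT target, had 17.7 and 18.4 RPKM in the knockout libraries and 61.2 and 60.1 RPKM in the wild-type libraries. Fmc1, an assembly factor of the mitochondrial ATP synthase, had 5.95 and 5.098 RPKM in the knockout libraries and 19.9 and 18.5 RPKM in the wild-type libraries. In none of the 3 did the groups overlap, and their differences after quantile normalization were -1.96 (SE 0.0464, adjusted p = 8.32e-06), -1.73 (SE 0.0462, adjusted p = 1.08e-05) and -1.68 (SE 0.0555, adjusted p = 1.29e-05). Weaker transcripts fell as well. Slfn9, a Schlafen family member, had 1.04 and 0.961 against 6.69 and 4.15 RPKM (knockout replicates 1 and 2 against wild-type replicates 1 and 2, the order used from here on). Nnmt, which methylates nicotinamide, had 1.35 and 0.943 against 6.25 and 5.13 RPKM. Ggt1, a gamma-glutamyl transferase of glutathione turnover, had 2.29 and 2.04 against 10.3 and 7.52 RPKM. Both knockout libraries stood below both wild-type libraries for each of these, with differences of -1.69 (adjusted p = 2.25e-05), -1.67 (adjusted p = 4.63e-05) and -1.68 (adjusted p = 1.14e-05). Slfn9, Nnmt and Ggt1 lost their calls as deposited with either knockout library left out.

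Several of the genes that rose most code for surface or secreted proteins. Mcam, an adhesion molecule of the immunoglobulin superfamily, had 97.98 and 100.3 RPKM in the knockout libraries and 34.8 and 33.7 RPKM in the wild-type libraries. Fgfbp1, a secreted carrier of fibroblast growth factors, had 44.4 and 45.02 RPKM in the knockout libraries and 15.3 and 13.1 RPKM in the wild-type libraries. Serpine2, a secreted inhibitor of serine proteases, had 30.6 and 31.1 RPKM in the knockout libraries and 11.3 and 9.67 RPKM in the wild-type libraries. The knockout libraries lay close together and clear of the wild type for all 3, with differences of 1.47 (SE 0.0309, adjusted p = 8.32e-06), 1.54 (SE 0.0356, adjusted p = 8.32e-06) and 1.43 (SE 0.0509, adjusted p = 1.51e-05) after quantile normalization. Ptprv, a receptor-type phosphatase, had 36.8 and 35.2 against 13.8 and 10.2 RPKM. Slc39a14, a zinc and manganese transporter, had 14.1 and 13.2 against 4.88 and 3.14 RPKM. Neat1, the long noncoding RNA that builds paraspeckles, had 6.902 and 5.93 against 2.14 and 1.04 RPKM. Both knockout libraries stood above both wild-type libraries for each, with differences of 1.47 (adjusted p = 1.29e-05), 1.51 (adjusted p = 1.14e-05) and 1.51 (adjusted p = 2.24e-05). The homeobox gene Nkx2-9 also rose, from 3.36 and 1.66 to 11.2 and 7.75 RPKM (difference 1.57, adjusted p = 0.000213). Slc39a14, Neat1 and Nkx2-9 lost their calls as deposited with either knockout library left out.

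**Figure D2:**
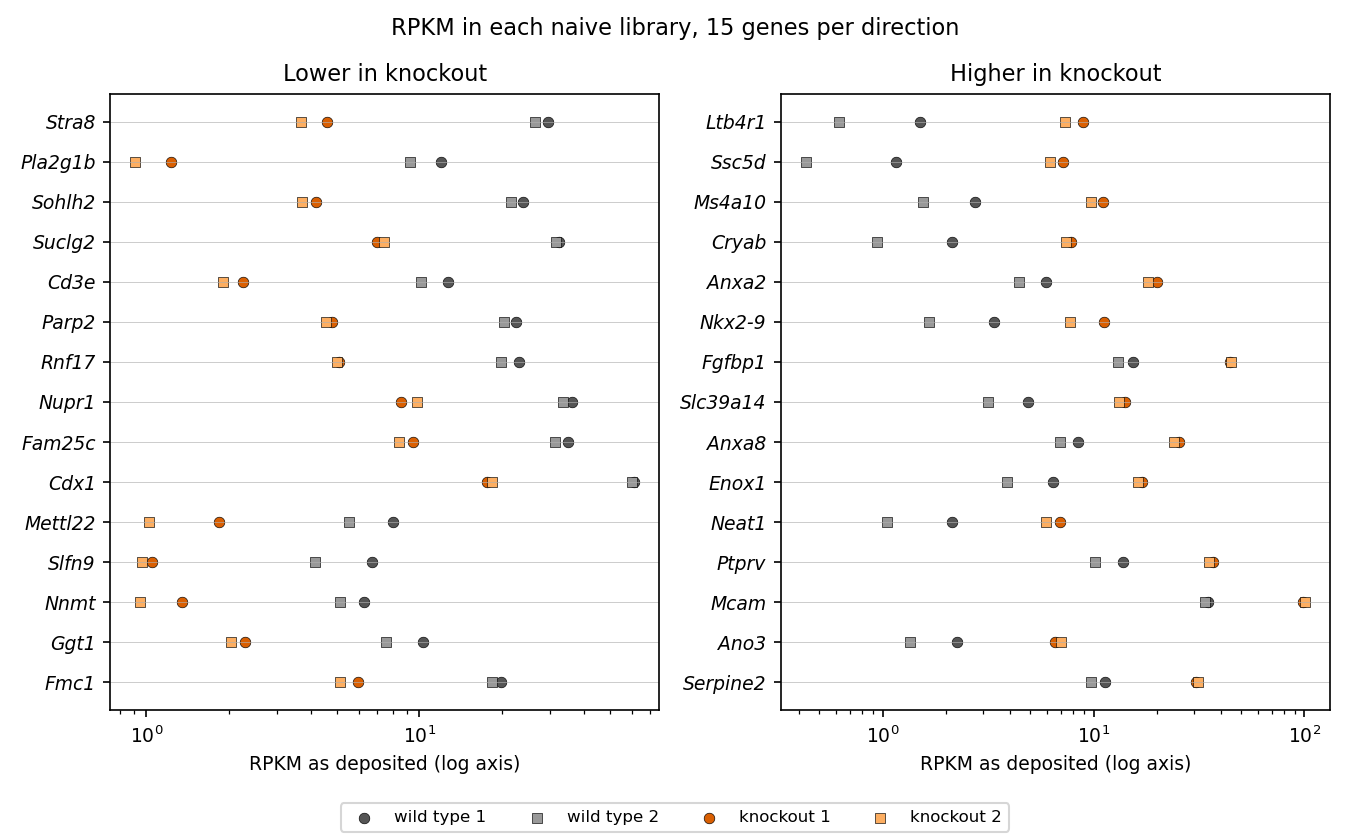
RPKM as deposited (log axis) in each of the 4 naive libraries for the 15 named genes with the deepest falls (left) and the 15 with the steepest rises (right). Knockout and wild-type points do not overlap for any of the 30 genes, and wild-type replicate 2 (light grey squares) lies left of wild-type replicate 1 in each.

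A short sequence near the transcription start moved with the falls. AANATGGC is the core of the YY1 binding sequence read toward the gene, and also the core of a known initiator element that sits just after the start of many housekeeping genes with short leaders, where its ATG can be the start codon. The motif was one of 19 searched in RefSeq windows of GRCm38.p6, from 250 bases before to 50 bases after each annotated start, and the split by strand and position was made after values were seen. A window was matched for 9552 tested genes, of which 874 (9.15%) were called lower and 1140 (11.9%) higher as deposited, and 28.3% lower and 33.5% higher after quantile normalization. The following stretches, with the 8 letters in capitals and all written 5′ to 3′ along the gene's own strand, come from genes with the match that were called lower on both scales and had some of the deepest falls:
Fmc1, chr6:38534860-38534888, + strand: caaggacagaAAAATGGCggccctggggt
Mrps27, chr13:99344790-99344818, + strand: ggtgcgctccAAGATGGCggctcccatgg
Ppp1r7, chr1:93343647-93343675, + strand: aagagcagccAATATGGCggcagagcgcg
Mrpl42, chr10:95501904-95501932, - strand: agattgaagcAAGATGGCgagcgcgcggt
Mrpl18, chr17:12916067-12916095, - strand: acccacagttAACATGGCtgcgactagtt
Coa3, chr11:101278912-101278940, - strand: gcggagcagcAACATGGCggcccctggag
The match did not fix the direction, and these genes with the same letters were called higher on both scales:
Irak1, chrX:74023886-74023914, - strand: cgcggagggcAAGATGGCggcgggtcgag
Utp20, chr10:88826788-88826816, - strand: ctggctttccAACATGGCggcgcccagcg
Nmt1, chr11:103028559-103028587, + strand: ctcgcaacccAAGATGGCggatgagagtg

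Genes with AANATGGC in sense within the first 50 bases were lower in the knockout more often than genes with a window in general (29.6% against 9.15% as deposited). There were 375 of them (3.93% of genes with a window). Of these, 111 (29.6%) were called lower and 26 (6.93%) higher as deposited, and 61.9% lower and 12.3% higher after quantile normalization. Their median difference was -0.25 after quantile normalization, against 0.03 for the 8552 genes with the letters nowhere in the window on either strand, of which 8.27% were called lower as deposited. After quantile normalization, the median of the matched genes lay between -0.25 and -0.23 over the 4 pairings of 1 knockout with 1 wild-type library. It was -0.01 between the knockout replicates and 0.01 between the wild-type replicates. As deposited the pairings spread wider, with -0.29, -0.10, -0.31 and -0.13. The genes without the letters had -0.03, 0.22, -0.08 and 0.18 in the same pairings. The values differed with position and strand, a comparison that was not tested. Matches in sense before the start (282 genes) had a median of -0.02 with 12.8% called lower as deposited, antisense matches in the first 50 bases (121 genes) a median of 0.03 with 10.7%, and antisense matches before the start (286 genes) a median of 0.03 with 8.74%. By distance, the median was -0.32 for matches beginning at bases 0 to 9 from the start, -0.14 at 10 to 19, -0.25 at 20 to 29 and -0.30 at 30 to 42, and it was -0.31 for the 19 genes with a match in the 25 bases just before the start.

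**Figure D3:**
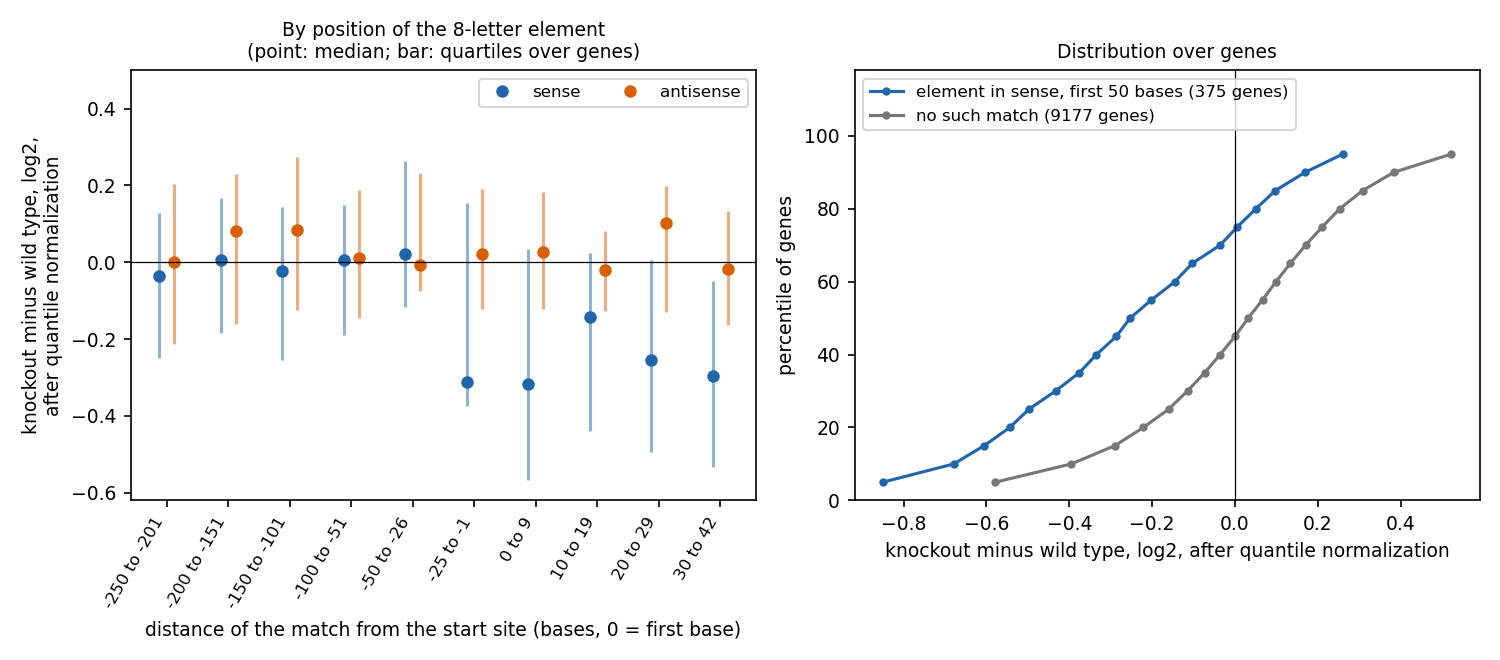
Left, median (points) and quartiles (bars) of the difference after quantile normalization by distance of the 8-letter element from the start site, in sense (blue) and antisense (orange); right, percentiles of the difference for the 375 genes with the element in sense in the first 50 bases and for the 9177 genes without it. The sense medians drop to between -0.32 and -0.14 from 25 bases before the start onward, the antisense medians stay between -0.02 and 0.10, and the curve of the 375 genes lies to the left at each percentile plotted.

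The shift was seen at all levels and remained when listed mitochondrial genes were removed. In 7 ranges of mean level the median of matched genes lay between -0.35 and -0.18, against 0.02 to 0.04 for genes without the match. With the mitochondrial, respiratory, ribosomal, p53 and cholesterol lists removed, 340 matched genes remained, with 89 (26.2%) called lower as deposited and a median of -0.24. Mitochondrial genes outside these lists, such as Fmc1 and Coa3, were still among the 340. The part of mitochondrial genes as a whole was not tested. Transcript length (longest GENCODE vM21 transcript, known for 12035 tested genes) also moved with the difference: the share called lower as deposited went from 14% at up to 1000 bases to 3.44% above 6000 bases, and the median after quantile normalization from -0.01 to 0.07. Matched genes were lower in each of 5 length ranges, with medians from -0.41 (1000 to 2000 bases, 59 genes) to -0.16 (above 6000 bases, 72 genes), against -0.02 to 0.07 for the others. Related letters in the same place also went with falls. ATGGC in sense in the first 50 bases, in genes without AANATGGC there (655 genes), had a median of -0.10 with 18% called lower as deposited. GCCATGGC (91 genes) had a median of -0.12 with 17.6% called lower. Genes that also held AANATGGC were not removed from this set or from those of ACCATGGC and AAGATGGA, so these sets may overlap it. ACCATGGC (26 genes) had a smaller median of -0.13, but 34.6% of its genes were called lower as deposited, above the 29.6% of AANATGGC. AAGATGGA, an ATG context without the final C of the core (18 genes), had -0.09. The 8 letters and an ATG at that place cannot be told apart here. CCGGAAGT, the sequence bound by ETS factors, went the other way: of 912 genes with it anywhere in the window on either strand, 16.7% were called higher as deposited, against 11.4% of those without it, and the median was 0.08 against 0.02. It was not alone in this. TTCCNGGAA, bound by STAT factors (148 genes), had a median of 0.10 with 16.2% called higher as deposited. In the primed libraries as deposited, the matched genes were below the unmatched ones in all 4 pairings, with medians of -0.60, -0.93, -0.67 and -1.0003 against -0.30, -0.62, -0.38 and -0.70.

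The genes printed above show the range in single libraries. Ppp1r7, a regulator of protein phosphatase 1, had 10.1 and 10.6 RPKM in the knockout libraries and 25.7 and 23.2 RPKM in the wild-type libraries. Mrps27 and Mrpl42, proteins of the mitochondrial ribosome, had 9.09 and 9.16 against 29.96 and 25.4 RPKM for Mrps27 and 54.5 and 49.4 against 113 and 113 RPKM for Mrpl42. Coa3, an assembly factor of cytochrome oxidase, had 23.8 and 23.6 against 46.03 and 41.5 RPKM. All 4 fell with no overlap between the groups, with differences of -1.22 (adjusted p = 1.95e-05), -1.56 (adjusted p = 1.44e-05), -1.12 (adjusted p = 6.5e-05) and -0.90 (adjusted p = 5.09e-05). Against them, Nmt1, the N-myristoyltransferase, rose from 92.1 and 104 to 153 and 151 RPKM (difference 0.63, adjusted p = 2e-05), Irak1, a kinase of Toll-like receptor signalling, from 25.7 and 23.8 to 36.8 and 37.9 RPKM (difference 0.54, adjusted p = 6.2e-05) and Utp20, a ribosome biogenesis factor, from 43.03 and 42.5 to 63.01 and 66.8 RPKM (difference 0.57, adjusted p = 4.61e-05). Yy1 itself, named after its values were seen, had 42.6 and 43.8 RPKM in the knockout libraries and 47.4 and 50.5 RPKM in the wild-type libraries; the groups did not overlap, but it was called lower only after quantile normalization (difference -0.21, SE 0.035, adjusted p = 0.00294) and not as deposited, where the difference was -0.18 (SE 0.0688, adjusted p = 0.0517). Nmt1 lost its call as deposited with median centring.

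Enzymes of the TCA cycle, which oxidises acetyl-CoA in mitochondria, were mostly lower. Of this list, 3 of 34 tested members were called higher and 16 lower as deposited. After quantile normalization 3 were higher and 22 lower, and the median was -0.20. Suclg2, a subunit of succinyl-CoA synthetase, had 6.98 and 7.43 RPKM in the knockout libraries and 32.4 and 31.6 RPKM in the wild-type libraries. Sdha, the flavoprotein of succinate dehydrogenase, had 54.8 and 54.97 RPKM in the knockout libraries and 105 and 113 RPKM in the wild-type libraries. Pck2, the mitochondrial enzyme that makes phosphoenolpyruvate, had 10.5 and 11.3 RPKM in the knockout libraries and 27.02 and 23.9 RPKM in the wild-type libraries. In all 3 the knockout libraries stood far below the wild type, with differences of -2.05 (SE 0.0565, adjusted p = 1.08e-05), -0.99 (SE 0.0297, adjusted p = 1.14e-05) and -1.21 (SE 0.054, adjusted p = 2.37e-05). The isoenzyme Ogdhl, similar to a subunit of the oxoglutarate dehydrogenase complex, moved the other way, with 92.9 and 89.4 against 62.9 and 65.6 RPKM (difference 0.47, adjusted p = 9.09e-05). Proteins of the mitochondrial ribosome followed the same direction as the cycle: 4 of 78 tested members were called higher and 31 lower as deposited. After quantile normalization 10 were higher and 41 lower, and the median was -0.16. Of the 69 with a promoter window, 16 held the sense element and had a median of -0.39, against -0.16 for the other 53. Import and dynamics genes were divided, since 4 of 40 tested members were called higher and 10 lower as deposited. After quantile normalization 8 were higher and 16 lower. The small chaperone of the intermembrane space Timm8b fell to 32.1 and 30.5 from 62.4 and 61.6 RPKM (difference -0.997, adjusted p = 2.32e-05), and Timmdc1, an assembly factor of respiratory complex I, rose to 21.1 and 20.1 from 14.1 and 11.8 RPKM (difference 0.58, adjusted p = 0.000111). TCA cycle and succinyl-CoA synthetase gave 7 (knockout replicate 2) to 20 (wild-type replicate 1) lower calls. Mitochondrial ribosomal proteins gave 14 (knockout replicate 2) to 41 (wild-type replicate 1) lower calls. Mitochondrial import and dynamics gave 5 (knockout replicate 1) to 13 (wild-type replicate 1) lower calls. Ogdhl lost its call as deposited with median centring. Timmdc1 lost its call as deposited with either knockout library left out.

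Serine, glycine and one-carbon enzymes, which supply carbon units for nucleotides and methylation, were lower on balance. In this list, 5 of 31 tested members were called higher and 11 lower as deposited. After quantile normalization 7 were higher and 14 lower, and the median was -0.18. Phgdh, the first enzyme of serine synthesis, had 45.5 and 42.2 RPKM in the knockout libraries and 72.1 and 71.6 RPKM in the wild-type libraries (difference -0.73, adjusted p = 0.000109). Mthfd2, a mitochondrial folate enzyme, had 60.4 and 61.5 RPKM in the knockout libraries and 79.2 and 87.5 RPKM in the wild-type libraries (difference -0.45, adjusted p = 5.9e-05). Members that rose included 2 genes of the methionine cycle, while Bhmt and Bhmt2, which also remethylate homocysteine, fell. The methionine synthase Mtr had 36.2 and 36.5 against 27.5 and 26.4 RPKM (difference 0.37, adjusted p = 0.000297) and Mat2a, which makes S-adenosylmethionine, had 187 and 192 against 139.9 and 159 RPKM (difference 0.37, adjusted p = 0.000139). Of genes of nucleotide synthesis, 9 of 43 tested members were called higher and 13 lower as deposited. After quantile normalization 16 were higher and 16 lower. Dhodh and Umps, which act in turn in pyrimidine synthesis, had 11.9 and 11.2 against 22.5 and 18.6 RPKM for Dhodh and 36.8 and 38.6 against 56.01 and 58.04 RPKM for Umps and fell with differences of -0.83 (adjusted p = 3.43e-05) and -0.61 (adjusted p = 3.98e-05). The nucleoside diphosphate kinases Nme3 and Nme4 had 35.5 and 34.1 against 23.1 and 24.6 RPKM for Nme3 and 52.3 and 51.3 against 37 and 37.2 RPKM for Nme4 and rose with differences of 0.50 (adjusted p = 0.00208) and 0.44 (adjusted p = 0.000134). Fatty acid enzymes leaned down: 2 of 33 tested members were called higher and 6 lower as deposited. After quantile normalization 4 were higher and 16 lower, and the median was -0.13. The desaturases Fads2 and Scd1 had 45.5 and 43.3 against 85.2 and 93.5 RPKM for Fads2 and 54.6 and 57.1 against 83.1 and 91.4 RPKM for Scd1 (difference -1.02, adjusted p = 1.36e-05 and difference -0.66, adjusted p = 2.61e-05), while Srebf1, a transcription factor of lipid synthesis, had 53.7 and 50.5 against 44.3 and 42.4 RPKM (difference 0.23, adjusted p = 0.00418). Serine, glycine and one-carbon enzymes gave 4 (knockout replicate 1) to 16 (wild-type replicate 2) lower calls. Purine and pyrimidine synthesis gave 7 (knockout replicate 1) to 15 (wild-type replicate 1) lower calls. Fatty acid synthesis and desaturation gave 3 (knockout replicate 1) to 16 (wild-type replicate 2) lower calls. Mtr, Mat2a, Dhodh and Srebf1 lost their calls as deposited with either knockout library left out. Mat2a and Srebf1 lost their calls as deposited with median centring. Nme3 lost its call as deposited with knockout replicate 1 left out. Srebf1 lost its call as deposited with all 8 libraries in one fit. Nme3 and Srebf1 lost their calls after quantile normalization with no filter on low values.

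DNA replication and mitosis genes were more often lower than higher. Among fork proteins and polymerases, 2 of 33 tested members were called higher and 14 lower as deposited. After quantile normalization 3 were higher and 18 lower, and the median was -0.11. Tipin, which stabilises stalled forks with Timeless, had 38.8 and 40.3 RPKM in the knockout libraries and 66.7 and 69.03 RPKM in the wild-type libraries. Top1, the topoisomerase that relaxes DNA ahead of forks, had 39.6 and 43.03 RPKM in the knockout libraries and 66.2 and 73.3 RPKM in the wild-type libraries. Both fell without overlap, with differences of -0.79 (SE 0.0316, adjusted p = 2e-05) and -0.76 (SE 0.0476, adjusted p = 6.73e-05). Among origin factors 3 of 32 tested members were called higher and 6 lower as deposited. After quantile normalization 7 were higher and 14 lower. Orc5, a subunit of the origin recognition complex, had 44.3 and 46.4 against 37.9 and 39.3 RPKM and rose (difference 0.20, adjusted p = 0.00737), whereas the licensing factor Cdt1 had 77.5 and 73.97 against 93.7 and 103 RPKM and fell (difference -0.39, adjusted p = 0.000213). For mitosis and kinetochore genes, 1 of 58 tested members were called higher and 12 lower as deposited. After quantile normalization 7 were higher and 29 lower, and the median was -0.14. Spc24 of the outer kinetochore had 33.4 and 31.4 against 46.6 and 53.01 RPKM (difference -0.63, adjusted p = 0.000293), the mitotic kinase Plk1 had 62.6 and 58.7 against 76.2 and 82.4 RPKM (difference -0.39, adjusted p = 0.000457), and Cenpm, a centromere protein, had 86 and 79.7 against 68.4 and 68.6 RPKM and rose (difference 0.25, adjusted p = 0.00451). Replication forks and polymerases gave 5 (knockout replicate 2) to 17 (wild-type replicate 1) lower calls. MCM, GINS and origin factors gave 3 (knockout replicate 1) to 12 (wild-type replicate 1) lower calls. Mitosis and kinetochore genes gave 2 (knockout replicate 1) to 26 (wild-type replicate 1) lower calls. Orc5 lost its call as deposited with either knockout library left out. Orc5 and Cenpm lost their calls as deposited with all 8 libraries in one fit. Orc5, Cdt1, Plk1 and Cenpm lost their calls as deposited with median centring. Orc5 lost its call as deposited with no filter on low values. Cenpm lost its call as deposited with knockout replicate 1 left out. Orc5 and Cenpm lost their calls after quantile normalization with no filter on low values. Orc5 lost its call after quantile normalization with knockout replicate 2 left out.

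Translation and ribosome production parted. Among translation factors 2 of 60 tested members were called higher and 14 lower as deposited. After quantile normalization 14 were higher and 23 lower, and the median was -0.0007. Eef1g, a subunit of the elongation factor that reloads eEF1A, had 228 and 230.2 RPKM in the knockout libraries and 442 and 493 RPKM in the wild-type libraries (difference -0.89, SE 0.0234, adjusted p = 1.08e-05). Eif3f and Eif4b, initiation factors, had 99.3 and 97.6 against 143 and 167 RPKM for Eif3f and 121 and 123 against 173 and 195 RPKM for Eif4b (difference -0.65, adjusted p = 3e-05 and difference -0.58, adjusted p = 2.25e-05). Of the 48 with a promoter window, 5 held the sense element, with a median of -0.37, against 0.02 for the other 43. Ribosome biogenesis factors were more often higher, as 18 of 64 tested members were called higher and 6 lower as deposited. After quantile normalization 32 were higher and 14 lower, and the median was 0.09. Bms1 and Gnl2, GTPases of ribosome assembly, had 101 and 103 against 73.2 and 80.2 RPKM for Bms1 and 59.9 and 61.6 against 45.7 and 46.4 RPKM for Gnl2 and rose with differences of 0.38 (adjusted p = 9.85e-05) and 0.37 (adjusted p = 0.000148), while the late pre-rRNA nuclease Nob1 had 48.5 and 49.1 against 70.7 and 75.3 RPKM and fell (difference -0.59, adjusted p = 2.78e-05). Translation factors gave 9 (knockout replicate 1) to 21 (wild-type replicate 2) lower calls. Ribosome biogenesis gave 4 (knockout replicate 1) to 35 (wild-type replicate 2) higher calls. Eif4b, Bms1 and Gnl2 lost their calls as deposited with median centring.

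Lysosomal genes and SNARE and coat proteins were more often called higher than lower. Other lists of membrane traffic were near the share of all genes, with 12.7% higher and 7.3% lower as deposited for Rab GTPases and 9.8% and 6.1% for glycosylation genes (22 higher and 24 lower after quantile normalization). For lysosomal enzymes and the V-ATPase, 20 of 54 tested members were called higher and 4 lower as deposited. After quantile normalization 26 were higher and 13 lower, and the median was 0.08. Gaa, the acid glucosidase that breaks down glycogen, had 51.97 and 49.03 RPKM in the knockout libraries and 27.9 and 27.2 RPKM in the wild-type libraries. Manba, the lysosomal beta-mannosidase, had 69.4 and 69.7 RPKM in the knockout libraries and 41.7 and 40.4 RPKM in the wild-type libraries. Ctsd, the aspartic protease cathepsin D, had 231 and 232 RPKM in the knockout libraries and 138 and 151 RPKM in the wild-type libraries. The groups were well apart for all 3, with differences of 0.81 (SE 0.0444, adjusted p = 4.42e-05), 0.73 (SE 0.0284, adjusted p = 1.8e-05) and 0.70 (SE 0.0266, adjusted p = 1.64e-05). The proton pump subunit Atp6v1b2 had 84.3 and 83.1 against 114 and 129.9 RPKM and fell (difference -0.54, adjusted p = 3.49e-05). In the SNARE and coat protein list, 13 of 40 tested members were called higher and 1 lower as deposited. After quantile normalization 23 were higher and 5 lower, and the median was 0.13. The Golgi SNARE Stx5a had 29.4 and 30.5 against 20.4 and 17.98 RPKM (difference 0.57, adjusted p = 6.33e-05) and Snap47 had 55.8 and 51.5 against 38.4 and 35.1 RPKM (difference 0.51, adjusted p = 0.000317), and the COPI subunit Copz1 was the member that fell, with 57.01 and 62.8 against 96.9 and 106 RPKM (difference -0.77, adjusted p = 5.1e-05). Chaperones and quality control factors of the endoplasmic reticulum leaned up, as 8 of 35 tested members were called higher and 0 lower as deposited. After quantile normalization 17 were higher and 7 lower. Syvn1, the ubiquitin ligase that clears misfolded proteins, had 28.1 and 27.1 against 16.9 and 13.95 RPKM (difference 0.75, adjusted p = 2.88e-05) and the chaperone calnexin, Canx, had 271 and 281 against 189.9 and 219 RPKM (difference 0.45, adjusted p = 0.000111). Among autophagy genes, 6 of 36 tested members were called higher and 1 lower as deposited. After quantile normalization 17 were higher and 5 lower. The initiating kinase Ulk1 had 108 and 106 against 77.9 and 83.5 RPKM (difference 0.39, adjusted p = 0.000112), and of the paired LC3 genes Map1lc3a had 26.3 and 23.2 against 19.12 and 16.6 RPKM (difference 0.40, adjusted p = 0.00155) and Map1lc3b 58.8 and 58.2 against 66.4 and 69.05 RPKM (difference -0.22, adjusted p = 0.00111). Lysosome and V-ATPase gave 5 (knockout replicate 1) to 31 (wild-type replicate 1) higher calls. SNAREs, COPI and COPII gave 3 (knockout replicate 2) to 26 (wild-type replicate 1) higher calls. ER chaperones and UPR gave 1 (knockout replicate 2) to 19 (wild-type replicate 1) higher calls, and 11 to 13 after quantile normalization. Autophagy gave 2 (knockout replicate 1) to 26 (wild-type replicate 1) higher calls. Ctsd, Canx, Ulk1 and Map1lc3b lost their calls as deposited with median centring. Stx5a and Canx lost their calls as deposited with knockout replicate 2 left out. Map1lc3a and Map1lc3b lost their calls as deposited with either knockout library left out. Map1lc3b lost its call as deposited with all 8 libraries in one fit.

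Of the INO80 complex, 5 of 15 tested members were called higher and 0 lower as deposited. These shares of 33.3% and 0% stand beside 11.9% and 9.06% of all tested genes. In a list this short, 0 lower calls is near the share of all genes. After quantile normalization 7 were higher and 2 lower, and the median was 0.06. Ino80b had 29.9 and 26.2 RPKM in the knockout libraries and 18.2 and 16.3 RPKM in the wild-type libraries (difference 0.62, SE 0.0653, adjusted p = 0.000439). Ino80d had 16 and 15.9 against 12.5 and 9.61 RPKM (difference 0.44, adjusted p = 0.000196) and Nfrkb, which regulates the remodeller's activity, 20.3 and 20.6 against 17.3 and 14.2 RPKM (difference 0.30, adjusted p = 0.000727). For the related complexes that deposit H2A.Z, 4 of 20 tested members were called higher and 3 lower as deposited. After quantile normalization 9 were higher and 5 lower. Epc1, a scaffold of the TIP60 acetyltransferase, had 18.1 and 17.6 against 12.6 and 10.7 RPKM (difference 0.53, adjusted p = 0.000198), and Anp32e, a chaperone that removes H2A.Z from chromatin, had 53.6 and 56.5 against 66.1 and 70.03 RPKM and fell (difference -0.31, adjusted p = 0.000439). Among CHD, ISWI and NuRD genes, 8 of 26 tested members were called higher and 2 lower as deposited. After quantile normalization 13 were higher and 4 lower. The remodeller Atrx had 59.6 and 63.7 against 45.6 and 46.6 RPKM (difference 0.39, adjusted p = 0.000258), and the deacetylase Hdac1 had 54.6 and 54.96 against 74.1 and 80.3 RPKM and fell (difference -0.51, adjusted p = 4.14e-05). INO80 complex gave 0 (knockout replicate 1) to 7 (wild-type replicate 1) higher calls, and 4 to 6 after quantile normalization. SRCAP and TIP60-p400 complexes and H2A.Z gave 0 (knockout replicate 1) to 12 (wild-type replicate 1) higher calls. CHD and ISWI remodellers and NuRD gave 1 (knockout replicate 1) to 14 (wild-type replicate 1) higher calls. Ino80b and Anp32e lost their calls as deposited with knockout replicate 1 left out. Ino80d, Nfrkb and Epc1 lost their calls as deposited with either knockout library left out. Ino80d and Nfrkb lost their calls as deposited with all 8 libraries in one fit. Anp32e and Atrx lost their calls as deposited with median centring.

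Polycomb and trithorax genes, which hold the opposing histone marks of bivalent promoters, went both ways. In the Polycomb list 6 of 32 tested members were called higher and 5 lower as deposited. After quantile normalization 11 were higher and 13 lower. Phc1, a polyhomeotic subunit of the canonical complex, had 199.8 and 197 RPKM in the knockout libraries and 127 and 139 RPKM in the wild-type libraries (difference 0.61, adjusted p = 2.29e-05). Jarid2, which helps recruit the methyltransferase complex, had 65.7 and 65.7 against 49.2 and 49.9 RPKM (difference 0.38, adjusted p = 0.000127), whereas Pcgf2 and Epop, the one a subunit of the ubiquitin ligase complex and the other a partner of the methyltransferase complex, had 25.3 and 24.2 against 35.4 and 32.6 RPKM for Pcgf2 and 62.6 and 57.8 against 70.1 and 88.01 RPKM for Epop and fell with differences of -0.48 (adjusted p = 0.000154) and -0.37 (adjusted p = 0.0066). Of the COMPASS genes 1 of 19 tested members were called higher and 2 lower as deposited. After quantile normalization 6 were higher and 6 lower. Rbbp5 stood at 65.2 and 66.8 against 45.97 and 47.3 RPKM (difference 0.47, adjusted p = 6.24e-05) and its core partner Ash2l at 101 and 104 against 147 and 166 RPKM (difference -0.59, adjusted p = 3e-05). Genes of DNA methylation likewise divided (3 of 15 tested members were called higher and 1 lower as deposited, and 6 higher and 3 lower after quantile normalization): Dnmt3l, the cofactor of de novo methylation, had 49.04 and 48.2 RPKM in the knockout libraries and 28.8 and 25.9 RPKM in the wild-type libraries (difference 0.77, SE 0.0329, adjusted p = 2.2e-05), the dioxygenase Tet1 had 47.8 and 49.2 against 32.6 and 30.98 RPKM (difference 0.56, adjusted p = 4.51e-05), and Uhrf1, needed for maintenance methylation, had 135 and 131 against 171 and 190.1 RPKM and fell (difference -0.42, adjusted p = 9.52e-05). For heterochromatin genes 5 of 21 tested members were called higher and 2 lower as deposited. After quantile normalization 9 were higher and 5 lower. Cbx5, the protein HP1 alpha, had 87.1 and 90.8 against 60.9 and 65.9 RPKM (difference 0.47, adjusted p = 8.85e-05), and Morc3, an ATPase of silenced chromatin, had 30.7 and 31.7 against 44.5 and 44.7 RPKM (difference -0.54, adjusted p = 5.11e-05). Replication-dependent histone genes include near-identical copies, among which the counting may have split reads, so their values are uncertain. Of 9 tested, 3 were called higher and 0 lower as deposited, and the median was 0.48. Hist1h1c, a linker histone, had 12.3 and 9.596 against 4.89 and 3.11 RPKM (difference 1.23, adjusted p = 0.000125). Polycomb complexes gave 3 (knockout replicate 1) to 12 (wild-type replicate 1) higher calls. COMPASS and UTX genes gave 1 (knockout replicate 1) to 5 (wild-type replicate 2) lower calls, and 3 to 5 after quantile normalization. DNA methylation and demethylation gave 2 (knockout replicate 1) to 11 (wild-type replicate 1) higher calls. H3K9 methylation and silencing gave 2 (knockout replicate 1) to 11 (wild-type replicate 1) higher calls. Replication-dependent histones gave 0 (knockout replicate 1) to 5 (wild-type replicate 1) higher calls. Phc1, Jarid2, Epop, Uhrf1 and Cbx5 lost their calls as deposited with median centring. Pcgf2 lost its call as deposited with knockout replicate 2 left out. Hist1h1c lost its call as deposited with either knockout library left out. Epop lost its call after quantile normalization with no filter on low values. Epop lost its call after quantile normalization with knockout replicate 2 left out.

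The marker lists described here each had more higher than lower calls on both scales, though some members fell. All tested genes leaned the same way, with 11.9% higher and 9.06% lower as deposited and 33.3% and 27.8% after quantile normalization. Of the marker lists not described in full, trophoblast, mesoderm, fibroblast and blood leaned lower after quantile normalization. Epithelial markers leaned higher, as all tested genes did. In the epiblast and primed-state list 5 of 21 tested members were called higher and 1 lower as deposited. After quantile normalization 12 were higher and 5 lower, and the median was 0.34. Etv4, an ETS factor and target of ERK signalling, had 74.02 and 73.4 RPKM in the knockout libraries and 41.6 and 41.1 RPKM in the wild-type libraries (difference 0.80, adjusted p = 1.51e-05). Zic2, a zinc finger factor of the epiblast, had 29.98 and 28.8 against 19.21 and 17.8 RPKM (difference 0.60, adjusted p = 0.000152), and Igfbp2, a carrier of insulin-like growth factors, had 44.4 and 42.6 against 68.3 and 66.4 RPKM and fell (difference -0.63, adjusted p = 0.000105). Factors of the naive state included both directions (5 of 22 tested members were called higher and 3 lower as deposited, and 11 higher and 7 lower after quantile normalization): the nuclear receptor Nr5a2 had 31.8 and 33.1 against 24.5 and 21.9 RPKM (difference 0.43, adjusted p = 0.000159), Tcl1 had 14.6 and 13.1 against 28.2 and 25.8 RPKM (difference -0.98, adjusted p = 3e-05) and the maternal gene Ooep 14.3 and 14.3 against 29.2 and 26.7 RPKM (difference -0.98, adjusted p = 1.47e-05). The 8 tested endoderm markers gave 3 called higher and 0 lower as deposited and a median of 0.32. After quantile normalization 7 were higher and 0 lower. They include the basement membrane genes Sparc, with 109.5 and 112 against 59.1 and 60.6 RPKM (difference 0.88, adjusted p = 1.29e-05), and Lamc1, with 151 and 151 against 112 and 124 RPKM (difference 0.37, adjusted p = 0.000109). The summed level of the 22 listed endoderm markers was 303 and 300.1 RPKM in the knockout and 213 and 209.5 RPKM in the wild-type libraries. Among endoderm factors, Sox17, Sox7 and Foxa2 stayed at or below 1.03 RPKM in every naive library. Gata6 had 1.99 and 1.3 against 0.903 and 0.482 RPKM, and Gata4 2.43 and 1.83 against 2.86 and 1.86 RPKM. Of neural markers, 2 of 9 tested members were called higher and 0 lower as deposited. After quantile normalization 5 were higher and 0 lower. Tubb3, a neuronal beta-tubulin, had 75.2 and 73.4 against 41.3 and 38.2 RPKM (difference 0.86, adjusted p = 2.14e-05), with Pax6 and Neurog2 at or below 0.354 RPKM. The neural factor Sox1 had 1.49 and 1.21 against 2.13 and 1.42 RPKM, and its groups overlapped. Of preimplantation genes 6 of 19 tested members were called higher and 1 lower as deposited. After quantile normalization 7 were higher and 4 lower. The higher ones included Usp17la and Usp17le, of a multicopy family whose reads the counting may have split among copies (difference 0.67, adjusted p = 0.000194 and difference 0.72, adjusted p = 4.63e-05). Pramel6, of another multicopy family, had 15.03 and 17.04 against 29.1 and 26.6 RPKM and fell (difference -0.82, adjusted p = 0.00017). Epiblast and primed-state markers gave 3 (knockout replicate 1) to 14 (wild-type replicate 1) higher calls. Naive-state factors gave 1 (knockout replicate 1) to 12 (wild-type replicate 2) higher calls, and 7 to 9 after quantile normalization. Primitive and definitive endoderm markers gave 2 (knockout replicate 1) to 7 (wild-type replicate 1) higher calls. Neural markers gave 1 (knockout replicate 1) to 5 (wild-type replicate 2) higher calls. Preimplantation genes gave 0 (knockout replicate 2) to 10 (wild-type replicate 1) higher calls. Zic2 lost its call as deposited with knockout replicate 1 left out. Nr5a2, Usp17la and Usp17le lost their calls as deposited with either knockout library left out. Nr5a2 and Usp17la lost their calls as deposited with all 8 libraries in one fit. Lamc1 lost its call as deposited with median centring. Usp17la lost its call as deposited with the replicate number as a block.

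Single ligands, receptors and targets of several signalling pathways changed. In the Notch and Hedgehog list 4 of 22 tested members were called higher and 1 lower as deposited. After quantile normalization 9 were higher and 7 lower. The ligand Jag2 had 24.7 and 22.6 RPKM in the knockout libraries and 13.5 and 11.3 RPKM in the wild-type libraries. The ligand Jag1 had 11.5 and 10.8 against 6.18 and 3.87 RPKM and the receptor Notch3 21.95 and 20.9 against 12.7 and 10.1 RPKM. These ligand and receptor genes rose, with differences of 0.83 (adjusted p = 6.24e-05), 0.98 (adjusted p = 3.49e-05) and 0.81 (adjusted p = 2.98e-05). The target Hes1 had 28.2 and 29.1 against 37.8 and 38.2 RPKM and fell (difference -0.44, adjusted p = 0.000186). Among genes of the Hippo pathway 6 of 22 tested members were called higher and 2 lower as deposited. After quantile normalization 11 were higher and 5 lower. Cyr61, a matrix protein and standard target of YAP, had 57.8 and 55.6 RPKM in the knockout libraries and 25.99 and 24.3 RPKM in the wild-type libraries (difference 1.11, SE 0.0384, adjusted p = 1.42e-05). Amotl2, which holds YAP in the cytoplasm, had 45.6 and 44.4 against 30.98 and 29.6 RPKM (difference 0.52, adjusted p = 7.1e-05), and the DNA-binding partner Tead2 had 30.4 and 27.8 against 45.6 and 42.5 RPKM and fell (difference -0.62, adjusted p = 0.000222). In the LIF and STAT3 list 2 of 22 tested members were called higher and 2 lower as deposited, 9.1% each and near the 11.9% and 9.06% of all tested genes. After quantile normalization 11 were higher and 5 lower. The cytokine gene Lif itself had 9.69 and 8.53 against 4.54 and 2.75 RPKM (difference 1.10, adjusted p = 3.54e-05), and Pim1, a kinase induced by STAT3, had 24.5 and 25.3 against 40.4 and 39.8 RPKM and fell (difference -0.70, adjusted p = 2.93e-05). Of KLF and SP factors 6 of 20 tested members were called higher and 1 lower as deposited. After quantile normalization 10 were higher and 3 lower. Klf6 stood at 29.4 and 28.9 against 19.02 and 16.8 RPKM (difference 0.63, adjusted p = 5.21e-05) and Klf8 at 12.8 and 13.2 against 19.19 and 16.6 RPKM (difference -0.50, adjusted p = 0.000169). Leukotriene and prostaglandin genes included the leukotriene receptor gene Ltb4r2 at 5.79 and 3.96 against 1.004 and 0.546 RPKM (difference 1.69, adjusted p = 0.000109) and the cyclooxygenase Ptgs1 at 2.78 and 2.64 against 1.19 and 0.382 RPKM (difference 1.09, adjusted p = 0.000188), and 5 of 16 tested members were called higher and 1 lower as deposited. After quantile normalization 6 were higher and 5 lower. The list's median was 0.0045, near that of all genes. Notch and Hedgehog pathways gave 0 (knockout replicate 1) to 13 (wild-type replicate 1) higher calls. YAP-TEAD targets and Hippo pathway gave 5 (knockout replicate 1) to 15 (wild-type replicate 1) higher calls. LIF-STAT3 pathway gave 0 (knockout replicate 1) to 13 (wild-type replicate 1) higher calls, and 6 to 9 after quantile normalization. KLF and SP factors gave 2 (knockout replicate 1) to 11 (wild-type replicate 1) higher calls. Eicosanoid enzymes and receptors gave 0 (knockout replicate 1) to 7 (wild-type replicate 1) higher calls. Jag2 lost its call as deposited with knockout replicate 1 left out. Jag1, Notch3, Hes1, Lif, Klf8, Ltb4r2 and Ptgs1 lost their calls as deposited with either knockout library left out. Klf8 lost its call as deposited with all 8 libraries in one fit. Ptgs1 lost its call as deposited with no filter on low values.

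Lists of surface, matrix and cytoskeletal genes differed in direction. Annexins and S100 proteins, collagens and laminins, and complement genes had more higher than lower calls. All tested genes did too, with 11.9% and 9.06% as deposited and 33.3% and 27.8% after quantile normalization. As deposited the lists had, in that order, 31.2% higher and 0% lower, 33.3% and 5.6%, and 20% and 0%. After quantile normalization the lower share of collagens and laminins was 27.8%, that of all genes. Tubulins, kinesins and dyneins had 5 higher and 10 lower of 56 as deposited (14 and 19 after quantile normalization). Integrins had 2 and 2 of 14 (5 and 5). Of annexins and S100 proteins, which bind calcium at membranes, 5 of 16 tested members were called higher and 0 lower as deposited. After quantile normalization 10 were higher and 2 lower, and the median was 0.15. Anxa8 had 25.3 and 23.98 RPKM in the knockout libraries and 8.44 and 6.94 RPKM in the wild-type libraries (difference 1.52, SE 0.0629, adjusted p = 2.09e-05). S100a6 had 10.03 and 10.4 against 5.38 and 3.32 RPKM (difference 1.03, adjusted p = 4.19e-05). For collagens and laminins 6 of 18 tested members were called higher and 1 lower as deposited. After quantile normalization 9 were higher and 5 lower, and the median was 0.16. Lama5, a laminin chain of basement membranes, had 60.5 and 58.6 against 36.1 and 33.6 RPKM (difference 0.73, adjusted p = 2.98e-05). Chains of collagen IX moved apart, Col9a3 with 4.09 and 3.48 against 0.488 and 0.124 RPKM (difference 1.89, adjusted p = 2.09e-05) and Col9a2 with 5.76 and 5.297 against 15.02 and 11.3 RPKM (difference -1.18, adjusted p = 2.2e-05). Among complement and coagulation genes 3 of 15 tested members were called higher and 0 lower as deposited. After quantile normalization 8 were higher and 3 lower, and the median was 0.26. Cd55, which protects cells from complement, had 23.2 and 22.8 against 15.2 and 13.5 RPKM (difference 0.60, adjusted p = 0.000126) and the protease-activated receptor F2rl1 had 22.1 and 20.4 against 16.04 and 12.8 RPKM (difference 0.48, adjusted p = 0.000309). Actin genes split (12 of 49 tested members were called higher and 9 lower as deposited, and 25 higher and 12 lower after quantile normalization). Moesin, Msn, which ties actin to the membrane, had 112 and 117 against 71.7 and 77.7 RPKM (difference 0.61, adjusted p = 3.49e-05), the actin-severing protein Dstn had 200.3 and 208 against 135 and 153 RPKM (difference 0.54, adjusted p = 4.42e-05), and Tmsb4x and Actg1, a monomer-binding thymosin and the cytoplasmic gamma-actin, had 103 and 98.1 against 158 and 183 RPKM for Tmsb4x and 189 and 179.9 against 240.2 and 271 RPKM for Actg1 and fell with differences of -0.77 (adjusted p = 2.61e-05) and -0.45 (adjusted p = 6.9e-05). Among cilium genes 7 of 63 tested members were called higher and 2 lower as deposited, shares of 11.1% and 3.2% beside 11.9% and 9.06% of all tested genes. After quantile normalization 26 were higher and 7 lower. Ift172, of the transport train that builds the cilium, had 12.9 and 12.1 against 8.63 and 5.86 RPKM (difference 0.66, adjusted p = 9.17e-05), and Bbs4, of the complex that sorts ciliary proteins, had 1.76 and 2.42 against 7.99 and 5.08 RPKM and fell (difference -1.31, adjusted p = 0.000578). Annexins and S100 proteins gave 2 (knockout replicate 1) to 12 (wild-type replicate 1) higher calls. Collagens and laminins gave 2 (knockout replicate 1) to 11 (wild-type replicate 1) higher calls. Complement and coagulation gave 1 (knockout replicate 1) to 9 (wild-type replicate 1) higher calls. Actin cytoskeleton gave 6 (knockout replicate 2) to 21 (wild-type replicate 1) higher calls. Cilium and intraflagellar transport gave 1 (knockout replicate 1) to 43 (wild-type replicate 1) higher calls. S100a6, Col9a3, Col9a2, Cd55, F2rl1, Ift172 and Bbs4 lost their calls as deposited with either knockout library left out. Cd55 lost its call as deposited with all 8 libraries in one fit. Dstn and Actg1 lost their calls as deposited with median centring. Actg1 lost its call as deposited with knockout replicate 2 left out. Bbs4 lost its call as deposited with no filter on low values.

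**Figure D4:**
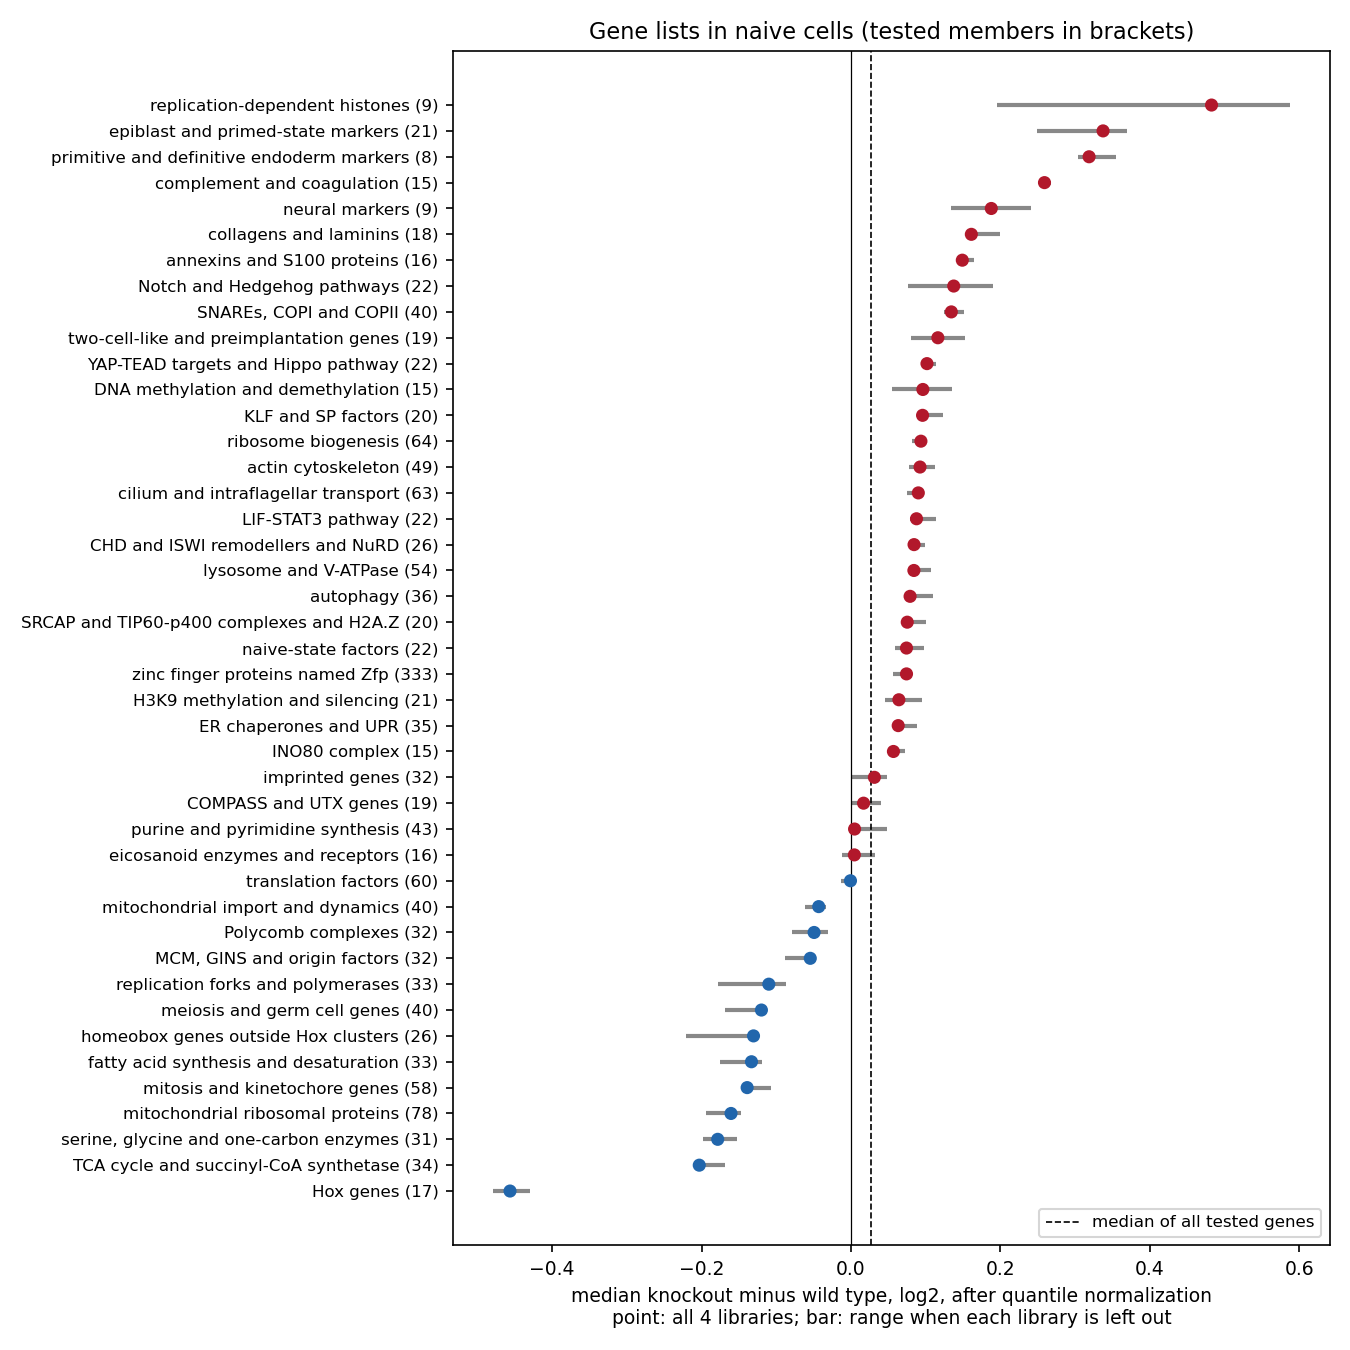
Median difference (log2, after quantile normalization) of the tested members of each of the 43 gene lists described; bars give the range of the median when each naive library is left out, and the dashed line is the median of all tested genes. Hox genes and TCA cycle enzymes stand at the low end and histones, epiblast markers and endoderm markers at the high end.

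Transcription factor families went in both directions, and germ line genes were called lower more often than higher. Only 17 Hox genes, which pattern the body axis, passed the filter, and 0 of 17 tested members were called higher and 1 lower as deposited. After quantile normalization 2 were higher and 12 lower, and the median was -0.46. The called genes after quantile normalization included Hoxc12 (difference 0.30, adjusted p = 0.0198) and Hoxb9 (difference 0.18, adjusted p = 0.0483). The single gene called lower as deposited was Hoxc4, with 1.14 and 1.07 against 3.74 and 2.88 RPKM (difference -1.04, adjusted p = 0.000329). Of homeobox genes outside those clusters, 1 of 26 tested members were called higher and 3 lower as deposited. After quantile normalization 5 were higher and 13 lower. The lower ones included Cdx1 above and the X-linked reproductive homeobox genes Rhox13, with 12.1 and 10.3 against 17.7 and 17.3 RPKM (difference -0.65, adjusted p = 0.000921), and Rhox1, with 4.097 and 3.76 against 10.2 and 6.91 RPKM (difference -0.99, adjusted p = 4.69e-05). Zinc finger genes named Zfp formed the largest list, and 14 of 333 tested members were called higher and 1 lower as deposited (4.2% and 0.3%). After quantile normalization 120 were higher and 63 lower, and the median was 0.07. Zfp365 had 22.2 and 22.2 against 9.84 and 7.35 RPKM (difference 1.23, adjusted p = 1.14e-05) and Zfp638 23.9 and 24.7 against 37.04 and 35.4 RPKM (difference -0.60, adjusted p = 4.96e-05). In the meiosis and germ cell list 4 of 40 tested members were called higher and 8 lower as deposited. After quantile normalization 10 were higher and 18 lower. Of members called on both scales, 5 were at least 2-fold lower as deposited and 0 at least 2-fold higher. The germ cell genes Stra8 and Sohlh2, among the 15 named genes that fell most, had differences of -2.55 (adjusted p = 8.32e-06) and -2.30 (adjusted p = 7.25e-06). Syce1, a central element protein of the synaptonemal complex, had 7.17 and 7.62 RPKM in the knockout libraries and 20.5 and 16.5 RPKM in the wild-type libraries (difference -1.27, SE 0.0609, adjusted p = 2.97e-05). Mov10 and the piRNA pathway gene Piwil2 had 51.6 and 51.5 against 34.6 and 33.7 RPKM for Mov10 and 17.8 and 17.2 against 13.5 and 9.76 RPKM for Piwil2 and rose with differences of 0.56 (adjusted p = 4.42e-05) and 0.50 (adjusted p = 0.000301). Of imprinted genes, 8 of 32 tested members were called higher and 4 lower as deposited. After quantile normalization 14 were higher and 10 lower. H19 rose with 4.66 and 4.296 against 1.73 and 0.976 RPKM (difference 1.21, adjusted p = 4.96e-05) and the maternally expressed noncoding RNA Rian fell with 42.7 and 45.98 against 64.6 and 70.1 RPKM (difference -0.62, adjusted p = 7.49e-05), as did the placental amino acid transporter Slc38a4 with 30.7 and 31.5 against 60.2 and 60.1 RPKM (difference -0.96, adjusted p = 1.64e-05). Hox genes gave 0 (knockout replicate 1) to 12 (wild-type replicate 2) lower calls. Homeobox genes outside Hox clusters gave 1 (knockout replicate 1) to 14 (wild-type replicate 2) lower calls. Zinc finger proteins named Zfp gave 4 (knockout replicate 1) to 190 (wild-type replicate 1) higher calls, and 65 to 95 after quantile normalization. Meiosis and germ cell genes gave 3 (knockout replicate 1) to 19 (wild-type replicate 2) lower calls. Imprinted genes gave 2 (knockout replicate 1) to 15 (wild-type replicate 1) higher calls. Hoxc4, Rhox13, Rhox1, Piwil2 and H19 lost their calls as deposited with either knockout library left out. Hoxc4 and H19 lost their calls as deposited with no filter on low values. Hoxc4 lost its call as deposited with a pseudocount of 0.1. Rhox13 and Piwil2 lost their calls as deposited with all 8 libraries in one fit. Rhox1 lost its call as deposited with the replicate number as a block. Hoxc12 and Hoxb9 lost their calls after quantile normalization with either knockout library left out. Hoxc12 and Hoxb9 lost their calls after quantile normalization with no filter on low values. Hoxc12 lost its call after quantile normalization with wild-type replicate 1 left out. Hoxb9 lost its call after quantile normalization with the replicate number as a block. Hoxb9 lost its call after quantile normalization with wild-type replicate 2 left out. Hoxb9 lost its call after quantile normalization with no intensity trend.

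Neighbouring genes sometimes moved together. Of 11732 tested genes placed in the order of the RefSeq table (GRCm38.p6, used for order only), 202 differed by at least 2-fold after quantile normalization, and 10 adjacent pairs had both members among them, 8 in the same direction. How many such pairs genes in random order would give was not tested. Bhmt and Bhmt2, betaine and S-methylmethionine homocysteine methyltransferases, had 3.09 and 2.83 against 11.1 and 8.69 RPKM for Bhmt and 4.76 and 4.57 against 13.5 and 11.04 RPKM for Bhmt2. Dmrt1 and Dmrt3, DM domain factors of the gonad, had 3.31 and 3.13 against 12.4 and 9.77 RPKM for Dmrt1 and 1.32 and 1.03 against 4.32 and 2.53 RPKM for Dmrt3. Tmem63a and Ephx1, an ion channel and the microsomal epoxide hydrolase, had 7.82 and 6.73 against 2.89 and 1.69 RPKM for Tmem63a and 33.4 and 33.1 against 12.7 and 10.8 RPKM for Ephx1. The first 2 pairs were lower and the third higher. Their differences after quantile normalization were -1.49, -1.28, -1.56, -1.01, 1.31 and 1.39. Dmrt3 was called only after quantile normalization. Ephx1 belongs to the p53 list, which is not described here. Ltb4r1 and Ltb4r2 also form a pair, as do Suclg2 and Kbtbd8 (7.75 and 8.104 against 18.03 and 15.01 RPKM), Rasip1 and Fut2, Ctsc and Rab38, and 2 uncharacterised transcripts. In the 2 opposite pairs Lif was higher and Hormad2 lower, with 2.39 and 1.904 against 6.87 and 4.64 RPKM, and Atp12a was higher and Rnf17 lower. Overlapping genes cannot be told apart where the counting did not use strand, and the sources used here do not say whether it did. Bhmt, Bhmt2, Dmrt1, Tmem63a, Kbtbd8 and Hormad2 lost their calls as deposited with either knockout library left out. Hormad2 lost its call as deposited with no filter on low values.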

How the data were processed

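The authors deposited 1 table of RPKM values per library, keyed by gene symbol. The submitters' processing notes name cutadapt 1.9, STAR 2.5.2b, featureCounts 1.5.1, affy and the build mm9 without roles. The sources used here do not say how the RPKM values were scaled or whether the spike-in was used. No value of the naive libraries is 0, and read depth is unknown. The precision is limited by 2 libraries a group.

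The main test was limma 3.58.1 (R 4.3.3) on log2(RPKM + 1), with a pseudocount of 1, an intensity trend in the variance, Benjamini-Hochberg adjustment over all tested genes and two-sided p-values; it was run on the 4 naive libraries as deposited and after quantile normalization within them. As deposited, the estimated prior degrees of freedom were infinite, which makes the adjusted p-values of strong genes very small. SE is the standard error from the fit, with n = 2 per group. The scripts were tested on simulated data. The simulated noise came from the replicate spread after quantile normalization, so the level-dependent difference between the wild-type replicates as deposited was not simulated.

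Named genes were, beside Ino80, the 15 largest differences per direction called on both scales, without overlap and with a mean of at least 5 RPKM in the higher group, and up to 3 called members per direction of each list described. Genes without an established name and members of the p53, cholesterol, ribosomal and respiratory lists were left out of the 15 per direction. This was not applied to list members or neighbouring genes, and Ephx1 is a p53 list member. Assembly factors outside the respiratory list, such as Fmc1 and Coa3, were kept. Neighbouring genes, genes with the promoter element and Yy1 were named after their values were seen. Of 97 lists, 91 outside those subjects had at least 5 tested members and 43 are described in full, with counts alone for 4 others added after their values were seen. Members, lists and motifs were chosen with earlier results of these data known. Alternatives were other pseudocounts, filters, variance models, scalings, a replicate block and leaving out each library. No list was tested as a set.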

Additional observations from a re-analysis of the deposited data

How the results depend on the processing

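Counts of called genes as deposited depended on the setting and on the library left out. As deposited (2534 called), the total was 1 with no intensity trend, 1622 with all 8 libraries in one fit and 7235 after cyclic loess, and ranged from 678 to 7638 when 1 library was left out. Median centring gave 3758, with 48.2% higher in place of 56.7%, and shared 1398 calls with the fit as deposited; without wild-type replicate 1 the higher share was 76%, without wild-type replicate 2 40%, without knockout replicate 1 46.5% and without knockout replicate 2 45.7%. The cause was not tested. After quantile normalization (7393 called), the totals of all alternatives lay between 5838 and 7691. The replicate number as a block gave 2410 calls as deposited and 7418 after quantile normalization; same-numbered deviations correlated at 0.34 and -0.02, and 2 pairs cannot show whether the numbers pair the libraries. Of 239 named calls as deposited, 238 were lost with no intensity trend, 126 without knockout replicate 1, 126 without knockout replicate 2, 51 under median centring, 40 with all 8 libraries and 27 with no filter; of 250 after quantile normalization, at most 18 were lost under any alternative. No named gene reversed.

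Of the 43 list counts, the replicate block moved none by over 1.5 times. The following turned as deposited: without wild-type replicate 1, import genes had 13 called lower and 14 higher, homeobox genes outside Hox clusters 6 lower and 9 higher, and meiosis genes 10 lower and 13 higher; without wild-type replicate 2, Notch and Hedgehog genes had 5 called higher and 7 lower, and Zfp genes 38 higher and 84 lower. With 1 library left out, the counts in the main direction ran from 5 to 13 lower for import, 1 to 14 lower for homeobox, 3 to 19 lower for meiosis, 0 to 13 higher for Notch and Hedgehog and 4 to 190 higher for Zfp genes. The median of the 375 genes with the sense element, whose alternatives were chosen after the data were seen, was -0.25 and became -0.20 as deposited, -0.27 after cyclic loess, -0.26 with a pseudocount of 0.1, -0.24 without the mitochondrial and related lists, and -0.25 to -0.24 with 1 library left out.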
